A study of Mus musculus with 8 samples.

Results

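The genes described here are 37 genes of the endoplasmic reticulum (ER) stress response and of the ATF4 response to amino acid shortage, followed in sorted basal cells of mouse back skin. They were taken from a list by symbol, and each gene is represented by the probe set that carries its symbol alone and has the highest mean signal over all arrays. Of the 37 listed genes, 36 were measured in this way, among 17097 genes in all, and Mthfd2 was not analysed here. By role, the measured genes comprise 3 stress sensors, 6 transcription factors, 15 ER chaperones and folding enzymes, 4 genes of ER-associated degradation, 5 amino acid response enzymes and 3 effectors of the ATF4 pathway. The study asked how basal cells respond when skin is stretched. Cells came from CD1 mice, an outbred strain, with 1 array per mouse. The 3 mice labelled CTRL were untreated, the 3 labelled EXPD4 had undergone force-mediated tissue expansion and were taken at day 4, and the 2 labelled TPA had received 12-O-tetradecanoylphorbol-13-acetate, a phorbol ester that stimulates protein kinase C and drives growth of mouse epidermis. Every sample held 300 living cells sorted as positive for the integrin ITGA6 and negative for CD34, a marker of the hair follicle bulge. The age and sex of the mice and the dose and timing of TPA are not given in the sources used here.

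Cells that fold many secreted and membrane proteins depend on the unfolded protein response. Misfolded protein in the ER is sensed by PERK (gene Eif2ak3), IRE1 (Ern1) and ATF6. IRE1 splices Xbp1 mRNA, and the spliced XBP1 protein and cleaved ATF6 induce chaperones and degradation factors. PERK phosphorylates the initiation factor eIF2alpha, which slows translation in general and favours that of ATF4. Kinases that sense amino acid shortage or heme reach the same step, so ATF4 targets such as the enzymes of asparagine and serine synthesis can move without the chaperones. In the epidermis the response is known for its part in keratinocyte differentiation.

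Values are the deposited log2 signals, written as mean ± SD (n = 3 for control, 3 for expanded, 2 for TPA). A difference is on the log2 scale with its SE from limma, called at an adjusted p (Benjamini-Hochberg over 17097 genes) under 0.05. The basal keratins Krt5 and Krt14 lay between 13.23 and 13.34 on all 8 arrays. Of 6 measured basal identity genes, 2 were called lower in each comparison with control, beside 5.78% (expanded) and 10.6% (TPA) of all genes. The sorted integrin Itga6 was 12.27 ± 0.04 on control, 11.80 ± 0.04 on expanded and 11.58 ± 0.09 on TPA arrays, the same order as most chaperones, and its part in the results was not tested. Cd34 lay under the background limit on all 8 arrays, the limit being the 95th percentile of 79 smell and related receptor genes on each array (6.37 to 6.55). Group names are those of the labels, because 2 genes known to be induced by TPA ran against them: Odc1 was 11.34 ± 0.02 on the arrays labelled control, 9.84 ± 0.14 on those labelled expanded and 8.99 ± 0.09 on those labelled TPA, and Krt6a was 13.23 ± 0.06, 13.14 ± 0.02 and 12.54 ± 0.15. Were the labels control and TPA exchanged, every TPA minus control difference below would change sign, and expanded minus control would become expanded minus TPA and the reverse. The endothelial gene Cdh5 stood at 9.73 on control replicate 1 and at 7.02 and 6.86 on the other control arrays. On that array the suprabasal keratin Krt10 was also higher, at 11.92 beside 10.96 and 10.90. Of the members, Eif2ak3 (6.55 beside 6.99 and 6.97) and Ddit3 (8.24 beside 8.55 and 8.63) were lower there, while the mean difference of the chaperones from the control mean was 0.03, beside 0.01 and -0.04.

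Of 34 member genes with a promoter in the RefSeq promoter table (GRCm38.p6, from 250 bases before to 50 after the start), 8 held the ER stress response element ERSE, that is CCAAT and CCACG with 9 bases between them, on either strand. The same search found it in 39 of 32851 promoters, or 0.119%. ERSE-II (ATTGG, 1 base, CCACG) was found in Dnajb11 and Herpud1 and in 0.0365% of all promoters. TGATGNAA, the C/EBP-ATF response element (CARE) bound by ATF4, was found in Asns, Chac1, Herpud1, Nupr1 and Trib3 and in 3.97% of all promoters, and TGACGTGG, the unfolded protein response element, was found in 0 members and in 0.676% of all promoters. Each window is printed 5′ to 3′ on the strand of the gene with 10 bases on either side, and capitals mark the element. The windows show which members carry an element known for the chaperone or the ATF4 branch. They do not divide the members by role: Herpud1 holds both kinds, 5 chaperones with a promoter hold no ERSE or ERSE-II, and of the 5 measured amino acid enzymes Asns alone holds CARE. The CARE of Chac1 and Trib3 and the ERSE-II of Dnajb11 are not printed. A match describes the letters and not a bound site.
Hspa5, chr2:34772015-34772053, plus strand: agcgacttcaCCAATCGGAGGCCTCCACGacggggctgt
Hsp90b1, chr10:86705523-86705666, minus strand: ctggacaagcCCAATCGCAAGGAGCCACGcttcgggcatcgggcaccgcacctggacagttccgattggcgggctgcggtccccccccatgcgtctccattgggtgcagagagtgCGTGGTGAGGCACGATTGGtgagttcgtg
Calr, chr8:84847065-84847103, minus strand: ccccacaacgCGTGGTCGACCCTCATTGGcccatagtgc
Canx, chr11:50325790-50325828, minus strand: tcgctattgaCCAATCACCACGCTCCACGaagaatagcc
Dnajc3, chr14:118937817-118937855, plus strand: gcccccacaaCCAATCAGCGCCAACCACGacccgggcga
Creld2, chr15:88819510-88819548, plus strand: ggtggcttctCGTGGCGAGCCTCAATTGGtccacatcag
Pdia6, chr12:17266481-17266519, plus strand: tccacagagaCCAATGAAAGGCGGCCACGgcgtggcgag
Syvn1, chr19:6046522-6046560, plus strand: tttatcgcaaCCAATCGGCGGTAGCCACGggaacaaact
Herpud1 (CARE, then ERSE-II), chr8:94386307-94386397, plus strand: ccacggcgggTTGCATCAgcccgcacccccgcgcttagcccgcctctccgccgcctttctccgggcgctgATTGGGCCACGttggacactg
Nupr1 (CARE), chr7:126625563-126625590, minus strand: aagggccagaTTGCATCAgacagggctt
Asns (CARE), chr6:7693215-7693242, minus strand: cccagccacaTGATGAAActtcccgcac

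Where the ER stress genes changed, most were lower on the arrays labelled expanded and TPA than on those labelled control, while the serine synthesis enzyme Phgdh was higher on both. Of 36 members, 15 were lower and 1 higher in expanded than in control cells, where 5.78% of all genes were called lower and 5.69% higher (11.5% in either direction). Between TPA and control, 20 were lower and 3 higher, beside 10.6% and 10.2% of all genes (20.8% in either direction). The median difference over the members was -0.30 for expanded and -0.37 for TPA, against medians of 0.01 and -0.03 over all genes. Both comparisons use the same control arrays, so they are not independent of each other. Without any TPA array in the fit, 17 members were called between expanded and control. In sorted bulk samples a lower signal from fewer cells of a type and from less RNA per cell cannot be told apart. Genes of suprabasal cells moved with the same groups: 5 of 8 measured suprabasal markers were higher in expanded and 5 of 8 in TPA than in control cells, the mean level of the list was 8.68 to 9.02 on control, 9.57 to 9.65 on expanded and 9.50 to 9.65 on TPA arrays, Lor and Flg lay under the limit on all 8 arrays, and Krt10 rose from 11.26 ± 0.57 to 12.73 ± 0.03 and 12.72 ± 0.01. Their part in the result was not tested. Macrophage and neutrophil markers had mean levels of 6.93 to 7.50, 6.65 to 6.68 and 6.13 to 6.31 in the same order, with 2 and 3 of 7 called lower, and their part was not tested either.

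**Figure D1:**
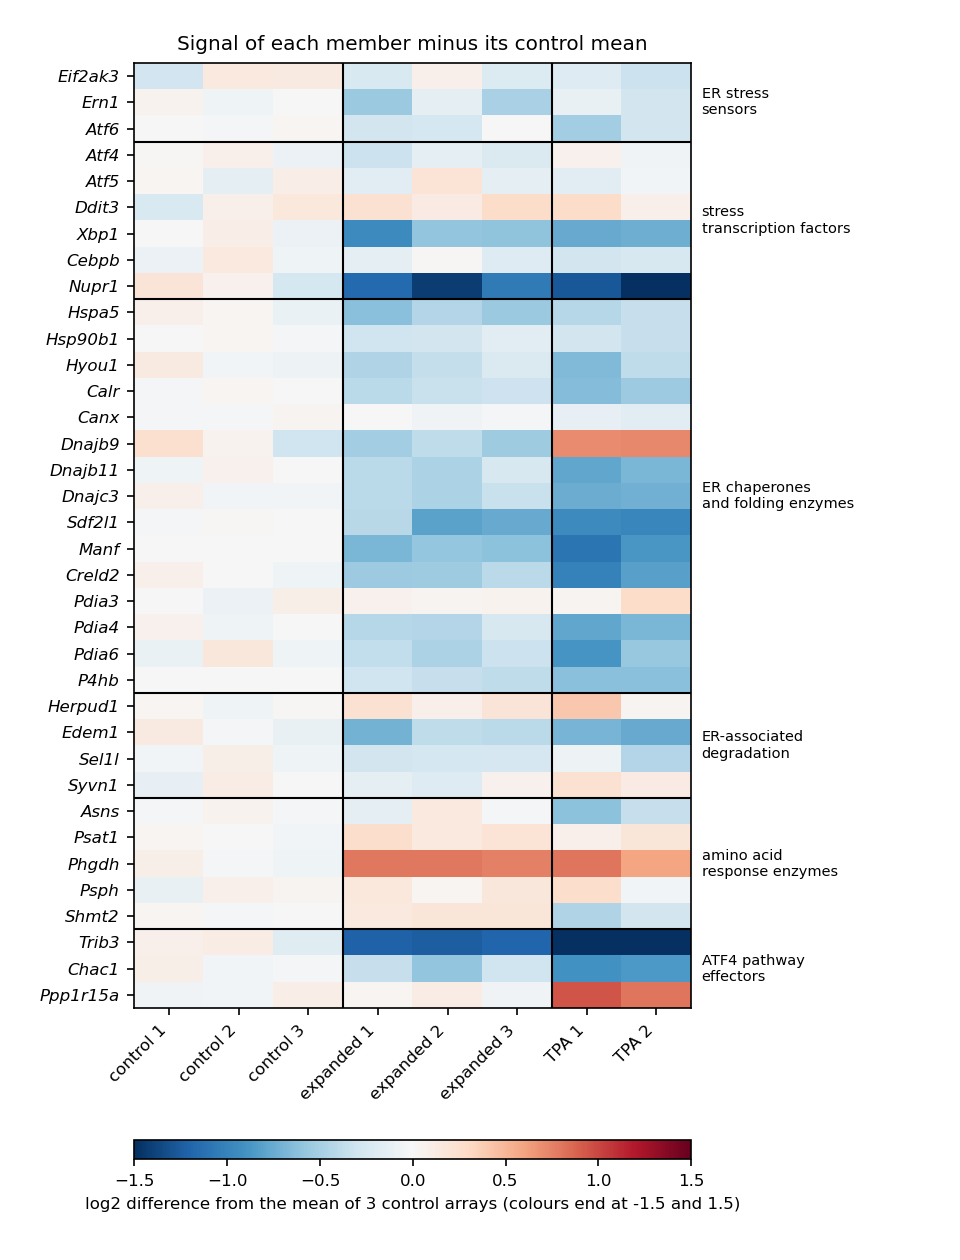
Log2 signal of each of 36 measured members minus its mean over the 3 control arrays, by array (columns) and by role (blocks of rows). Blue marks a lower and red a higher signal than the control mean, and the colours end at -1.5 and 1.5. Most chaperone rows are blue on the 3 expanded and 2 TPA arrays, while Phgdh is red on all of them and Dnajb9 and Ppp1r15a are reddest on the TPA arrays.

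Among the sensors, the chosen probe sets gave no call above background. Ern1, the IRE1 kinase and RNase, read 8.41, 8.30 and 8.36 on the control arrays, 7.80, 8.23 and 7.87 on the expanded arrays and 8.25 and 8.09 on the TPA arrays. The expanded arrays lay below the control arrays with no overlap, and the difference of -0.39 ± 0.11 did not pass (adjusted p = 0.0642, limma). Another, dimmer Ern1 probe set, above background on all 8 arrays, was instead lower in TPA than in control cells (-0.42 ± 0.12, adjusted p = 0.0364 in a fit over all probe sets with a symbol) and differed by -0.03 ± 0.10 in expanded cells. Eif2ak3, the PERK kinase, differed by -0.11 ± 0.13 and -0.25 ± 0.15, with overlapping arrays in both comparisons. Its signal, 6.52 to 6.99, lay close to the background limit. The second Eif2ak3 probe set, under the limit on all 8 arrays, passed as lower in TPA cells (adjusted p = 0.00729 in the fit over all probe sets). Atf6 lay under the background limit on all 8 arrays. Its signal passed as lower in TPA than in control cells (adjusted p = 0.0374), its second probe set did not (0.09 ± 0.11), and no fold is given.

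Of the transcription factors, Xbp1 and Nupr1 fell in both comparisons and the 4 others did not pass in either. Xbp1, the effector of IRE1, read 9.62, 9.72 and 9.53 on the control arrays, 8.66, 9.03 and 9.02 on the expanded arrays and 8.86 and 8.89 on the TPA arrays. Every control array lay above every other array. The difference was -0.72 ± 0.11 for expanded (1.65-fold lower, adjusted p = 0.00351) and -0.75 ± 0.12 for TPA (1.68-fold lower, adjusted p = 0.00266), and splicing of Xbp1 was not analysed here. Nupr1, a small stress-induced chromatin protein whose promoter window with CARE is printed above, read 10.76, 10.64 and 10.31 on control, 9.40, 9.15 and 9.51 on expanded and 9.30 and 8.84 on TPA arrays. The control arrays again stood apart from all others. Nupr1 was 2.32-fold lower in expanded cells (-1.22 ± 0.16, adjusted p = 0.0019) and 2.83-fold lower in TPA cells (-1.5 ± 0.18, adjusted p = 0.00053).

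Atf4 itself, whose protein is set largely by translation, read 10.35, 10.41 and 10.24 on control, 10.01, 10.19 and 10.11 on expanded and 10.39 and 10.28 on TPA arrays. The expanded arrays were the lowest, without overlap with either group, but the difference from control of -0.23 ± 0.08 did not pass (adjusted p = 0.109), and TPA minus control was 0.00 ± 0.09. Ddit3, which encodes the stress factor CHOP, was 8.47 ± 0.20 on control, 8.68 ± 0.08 on expanded and 8.65 ± 0.14 on TPA arrays, with differences of 0.20 ± 0.11 and 0.18 ± 0.13 that did not pass. Atf5 and Cebpb, other bZIP factors of the pathway, differed from control by between -0.25 and -0.03, without a call.

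Of 15 ER chaperones and folding enzymes, 10 were lower and 0 higher in expanded than in control cells, beside 5.78% and 5.69% of all genes. In TPA cells 12 were lower and 1 higher, beside 10.6% and 10.2% of all genes. The median differences of the 15 were -0.37 and -0.63. Hspa5, the ER Hsp70 known as BiP that also holds the sensors inactive, read 10.62, 10.57 and 10.44 on control, 9.91, 10.10 and 9.98 on expanded and 10.11 and 10.20 on TPA arrays. The control arrays were the highest, and the expanded arrays lay just below the TPA arrays. It was 1.46-fold lower in expanded cells (-0.55 ± 0.08, adjusted p = 0.00353) and 1.31-fold lower in TPA cells (-0.39 ± 0.09, adjusted p = 0.0177). The TPA call of Hspa5 did not pass without control replicate 2 or without TPA replicate 1 (adjusted p up to 0.103).

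Manf and Sdf2l1 had the largest falls of the 15 in both comparisons with control. Manf, a protein retained and released by the ER under stress, read 11.46, 11.45 and 11.45 on control, 10.77, 10.88 and 10.84 on expanded and 10.37 and 10.59 on TPA arrays. The 3 groups formed separate steps without overlap. Manf was 1.54-fold lower in expanded cells (-0.62 ± 0.08, adjusted p = 0.00132) and 1.96-fold lower in TPA cells (-0.97 ± 0.09, adjusted p = 0.000104). Sdf2l1, a cofactor of the Hspa5 cycle, read 9.34, 9.38 and 9.37 on control, 8.94, 8.56 and 8.60 on expanded and 8.41 and 8.38 on TPA arrays. It followed the same steps, by -0.66 ± 0.10 and -0.97 ± 0.11. Creld2, a stress-induced disulfide isomerase-like protein, read 11.44, 11.35 and 11.30 on control, 10.82, 10.83 and 10.96 on expanded and 10.35 and 10.54 on TPA arrays. Its steps were likewise separate, and it fell by 0.49 ± 0.08 (adjusted p = 0.00567) and by 0.92 ± 0.09 (adjusted p = 0.000188).

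The J-domain proteins and disulfide isomerases mostly had the same order of levels, with control highest and TPA lowest. Dnajc3, which assists Hspa5 and also inhibits PERK, read 9.81, 9.69 and 9.69 on control, 9.33, 9.26 and 9.40 on expanded and 8.99 and 9.01 on TPA arrays. The 3 groups were separate, with differences from control of -0.40 ± 0.07 (adjusted p = 0.00845) and -0.73 ± 0.08 (adjusted p = 0.000324). In a fit over all probe sets with a symbol, the second Dnajc3 probe set gave -0.33 ± 0.12 for expanded, which did not pass. For TPA it gave -0.52 ± 0.13, which did. The third gave -0.13 ± 0.12 and -0.01 ± 0.13, and the fourth -0.15 ± 0.13 and -0.39 ± 0.14, without a call. The fifth, under background on 7 arrays, did not pass either, so the Dnajc3 result depends on the probe set. Dnajb11, an Hspa5 cofactor with ERSE-II just after its start, differed by -0.37 ± 0.08 and -0.73 ± 0.09, and Pdia4, a disulfide isomerase, by -0.36 ± 0.08 and -0.73 ± 0.09. Each of their expanded calls did not pass when 4 of the 8 arrays were left out singly, while their TPA calls passed in all 8.

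P4hb, the founding protein disulfide isomerase, read 11.96, 11.96 and 11.98 on control, 11.67, 11.62 and 11.59 on expanded and 11.34 and 11.34 on TPA arrays. The steps between the groups were far wider than the spread within them. P4hb was 1.27-fold lower in expanded cells (-0.34 ± 0.06, adjusted p = 0.00824) and 1.55-fold lower in TPA cells (-0.63 ± 0.07, adjusted p = 0.000319). Pdia6, which carries an ERSE, read 10.14, 10.41 and 10.17 on control, 9.87, 9.77 and 9.92 on expanded and 9.36 and 9.67 on TPA arrays. The groups did not overlap, yet expanded minus control was -0.39 ± 0.11 and did not pass (adjusted p = 0.054), whereas TPA minus control was -0.73 ± 0.12 and passed (adjusted p = 0.00314). The second Pdia6 probe set did not show the fall in TPA cells (0.05 ± 0.16). Its expanded difference was -0.41 ± 0.14, which did not pass. Pdia3 lay under the background limit on all 8 arrays.

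Among the large glycoprotein chaperones, Hsp90b1 (GRP94, the ER Hsp90) read 12.05, 12.08 and 12.02 on control, 11.75, 11.77 and 11.88 on expanded and 11.78 and 11.70 on TPA arrays. The control arrays were the highest, and the other groups overlapped each other. Its difference was -0.25 ± 0.07 for expanded (adjusted p = 0.0461) and -0.31 ± 0.08 for TPA (adjusted p = 0.0214). The expanded call passed in 0 of 8 fits made with a single array removed (adjusted p up to 0.144), and the TPA call did not pass without control replicate 2, TPA replicate 1 or TPA replicate 2. In a limma fit over all probe sets with a symbol, the chosen Hsp90b1 probe set did not pass in expanded cells (adjusted p = 0.0541). The second one did (-0.36 ± 0.08, adjusted p = 0.0195). Hyou1 (GRP170), the nucleotide exchange factor of Hspa5, fell in TPA cells by 0.52 ± 0.12 (adjusted p = 0.0124, not passed without TPA replicate 1) and differed by -0.35 ± 0.10 in expanded cells without passing (adjusted p = 0.0676).

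The lectin chaperones calreticulin and calnexin differed in their main probe sets. Calr read 11.22, 11.28 and 11.26 on control, 10.85, 10.92 and 10.94 on expanded and 10.60 and 10.70 on TPA arrays. The groups did not overlap, with differences of -0.35 ± 0.07 (adjusted p = 0.0112) and -0.60 ± 0.07 (adjusted p = 0.000639). Canx, the membrane-bound partner, read 11.76 ± 0.03 on control, 11.73 ± 0.02 on expanded and 11.61 ± 0.04 on TPA arrays, and neither difference passed. The second Canx probe set did fall, with -0.36 ± 0.07 for expanded (adjusted p = 0.0113) and -0.59 ± 0.07 for TPA (adjusted p = 0.000845) in a fit over all probe sets with a symbol, so the Canx result depends on the probe set.

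Dnajb9 (ERdj4), an Hspa5 cofactor that represses IRE1, was the chaperone called higher in TPA cells. It read 8.50, 8.31 and 7.96 on control, 7.74, 7.88 and 7.73 on expanded and 8.97 and 8.98 on TPA arrays. The TPA arrays were the highest and the expanded arrays the lowest, with no overlap between groups. Dnajb9 was 1.64-fold higher in TPA than in control cells (0.72 ± 0.14, adjusted p = 0.00798). Expanded minus control was -0.47 ± 0.13, at the threshold (adjusted p = 0.05, not passed), and it passed in several alternatives, such as quantile normalization (-0.48 ± 0.12) and the fit without control replicate 3 (-0.62 ± 0.09).

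Chaperones with and without the promoter element had similar medians but unlike ranges in TPA cells. The 8 with ERSE or ERSE-II had median differences of -0.38 (expanded) and -0.66 (TPA). The 5 with a promoter but neither element, Pdia3 under background among them, had -0.36 and -0.63. In TPA cells the differences ran from -0.92 to -0.14 with an element and from -0.97 to 0.72 without. Manf and Hyou1 had no entry in the promoter table. The 5 members with CARE, Chac1 under background among them, had medians of -0.41 (expanded) and -0.89 (TPA). Of these 5, 3 were called lower in expanded and 4 in TPA cells, beside 5.78% and 10.6% of all genes. None of them was called higher, beside 5.69% and 10.2% of all genes.

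Of 4 genes of ER-associated degradation, Edem1 fell and the others did not pass on their chosen probe sets. Edem1, a lectin that routes misfolded glycoproteins to degradation, read 9.32, 9.17 and 9.08 on control, 8.48, 8.81 and 8.79 on expanded and 8.49 and 8.43 on TPA arrays. All control arrays lay above all others, and the differences were -0.50 ± 0.11 (adjusted p = 0.019, not passed without control replicate 1 or 2 or on the second probe set) and -0.73 ± 0.12 (adjusted p = 0.00288). Sel1l and Syvn1, which form the Hrd1 ubiquitin ligase complex, differed from control by -0.26 ± 0.10 and -0.09 ± 0.09 in expanded and by -0.26 ± 0.11 and 0.17 ± 0.10 in TPA cells. Of the 4 further Sel1l probe sets, the third in rank was called lower in both comparisons (-0.40 ± 0.08 and -0.59 ± 0.09, adjusted p = 0.0172 and 0.00241) and the fifth in TPA cells (-0.31 ± 0.09, adjusted p = 0.0365), so the Sel1l result depends on the probe set. Herpud1, an adaptor of that complex whose window holds both CARE and ERSE-II, read 9.48 ± 0.06 on control, 9.65 ± 0.08 on expanded and 9.70 ± 0.26 on TPA arrays, without a call.

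**Figure D2:**
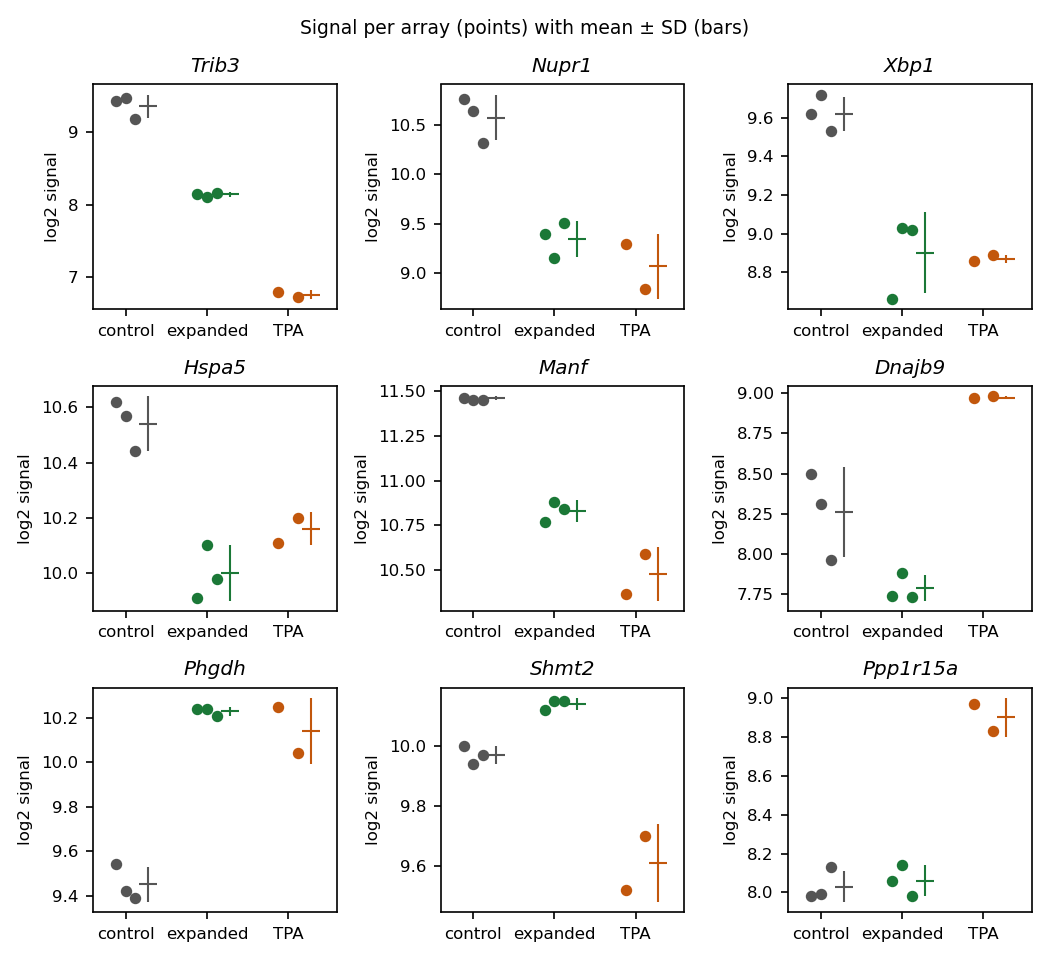
Log2 signal of 9 members on every array (points) with the mean ± SD of each group (bars) for 3 control, 3 expanded and 2 TPA arrays; the vertical axes differ between panels and do not start at 0. Trib3 and Manf step down from control to expanded to TPA, Xbp1 and Nupr1 are lower in both groups, Phgdh is higher in both, and Dnajb9 and Ppp1r15a are highest on the TPA arrays.

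By their median differences of 0.17 (expanded) and 0.11 (TPA), the amino acid response enzymes did not follow the chaperones. Of 5 measured enzymes, 1 was higher and 0 lower in expanded cells, beside 5.69% and 5.78% of all genes. In TPA cells 1 was higher and 2 were lower, beside 10.2% and 10.6% of all genes. With 5 genes, these counts alone do not set the enzymes apart from all genes. Phgdh, the first enzyme of serine synthesis, read 9.54, 9.42 and 9.39 on control, 10.24, 10.24 and 10.21 on expanded and 10.25 and 10.04 on TPA arrays. Every treated array lay above every control array. Phgdh was 1.72-fold higher in expanded cells (0.78 ± 0.08, adjusted p = 0.000575) and 1.62-fold higher in TPA cells (0.70 ± 0.09, adjusted p = 0.00077). Its second probe set was also called higher in both, by 0.69 ± 0.07 and by a smaller 0.37 ± 0.08 in TPA cells. The next enzymes of the same route, Psat1 and Psph, differed by 0.21 ± 0.07 (adjusted p = 0.0903) and 0.11 ± 0.10 in expanded cells and by 0.14 ± 0.08 and 0.11 ± 0.11 in TPA cells, and none passed.

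Asns, asparagine synthetase and a standard ATF4 target, read 10.02, 10.10 and 10.02 on control, 9.91, 10.20 and 10.02 on expanded and 9.44 and 9.70 on TPA arrays. The expanded arrays straddled the control arrays and the TPA arrays lay below both. Asns did not differ by more than the spread in expanded cells (0.00 ± 0.10) and was 1.39-fold lower in TPA cells (-0.47 ± 0.11, adjusted p = 0.0161), a call that did not pass without control replicate 2 or TPA replicate 1. Shmt2, the mitochondrial enzyme that splits serine into glycine and a one-carbon unit, read 10.00, 9.94 and 9.97 on control, 10.12, 10.15 and 10.15 on expanded and 9.52 and 9.70 on TPA arrays. The expanded arrays were the highest and the TPA arrays the lowest, with no overlap. Expanded minus control was 0.17 ± 0.07 and did not pass (adjusted p = 0.177), and TPA minus control was -0.36 ± 0.08 (adjusted p = 0.0122, not passed without TPA replicate 1). In a limma fit over all probe sets with a symbol, the second Shmt2 probe set did not pass there (-0.25 ± 0.08, adjusted p = 0.0578). The third did (-0.59 ± 0.14, adjusted p = 0.0188).

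The effectors of the ATF4 pathway moved in opposite directions in TPA cells. Trib3, a pseudokinase induced by ATF4 and CHOP, had the largest fall of all members in TPA cells. It read 9.43, 9.46 and 9.17 on control, 8.14, 8.11 and 8.16 on expanded and 6.80 and 6.73 on TPA arrays. The 3 groups lay far apart, and the TPA arrays came close to the background limit. Trib3 was 2.32-fold lower in expanded cells (-1.22 ± 0.09, adjusted p = 0.000103) and 6.02-fold lower in TPA cells (-2.59 ± 0.10, adjusted p = 2e-06). Ppp1r15a (GADD34), the phosphatase subunit that reverses eIF2alpha phosphorylation, read 7.98, 7.99 and 8.13 on control, 8.06, 8.14 and 7.98 on expanded and 8.97 and 8.83 on TPA arrays. Control and expanded arrays overlapped and the TPA arrays lay above both, with a TPA difference of 0.87 ± 0.09 (1.83-fold higher, adjusted p = 0.000222) and an expanded difference of 0.03 ± 0.08. Chac1, a glutathione-degrading ATF4 target, lay under the background limit on all 8 arrays. Its signal passed as lower in both comparisons, and no fold is given.

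Set side by side, the mean of the chaperones was lower than control on every treated array. The mean of the amino acid enzymes was above control on the expanded arrays and near the control mean on the TPA arrays. The mean difference from the control mean over 15 chaperones was -0.39, -0.39 and -0.34 on the expanded and -0.55 and -0.45 on the TPA arrays, with control arrays between -0.04 and 0.03. Over 5 amino acid enzymes it was 0.25, 0.26 and 0.26 on the expanded arrays and 0.02 and 0.02 on the TPA arrays. The gap between the medians of the 2 roles was -0.54 in expanded minus control and -0.74 in TPA minus control, given here as a description with no test. The amino acid median rests on 5 genes that differ among themselves. In TPA minus control it was 0.11 with all arrays and -0.04 without TPA replicate 1. The largest of the 5 differences in expanded cells was that of Phgdh. In TPA cells Phgdh (0.70) was again the largest, while Asns (-0.47) and Shmt2 (-0.36) were called lower and Psat1 (0.14) and Psph (0.11) did not pass. Apart from Phgdh, the falls of Asns and Shmt2 were larger than the positive differences of Psat1 and Psph. The TPA mean near 0 therefore rests on Phgdh.

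**Figure D3:**
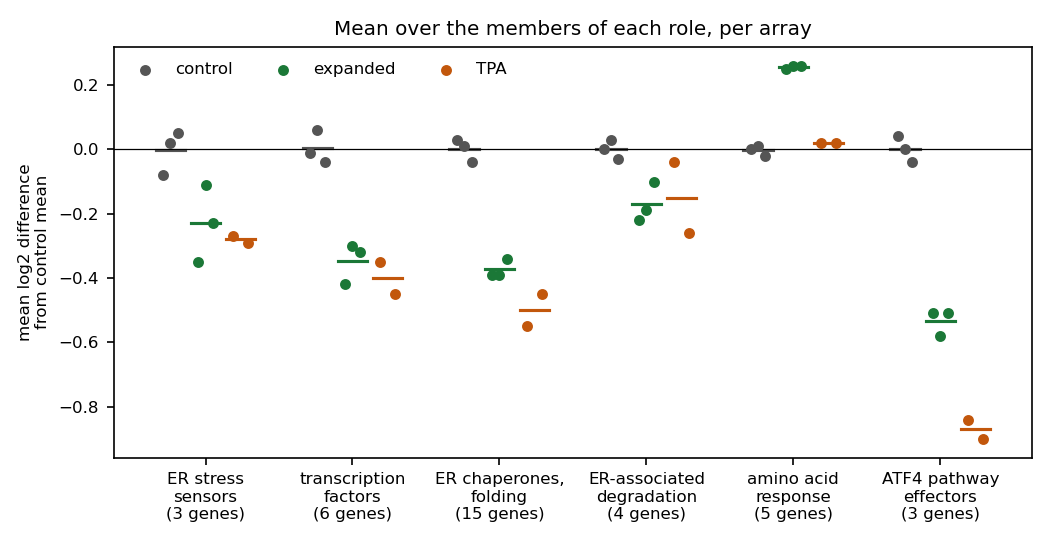
Mean log2 difference from the control mean over the members of each role, for each array (points) and group (short lines), with the number of genes in each role below. The 15 chaperones lie between -0.55 and -0.34 on the 5 treated arrays, while the 5 amino acid response enzymes lie near 0.25 on the expanded and near 0.02 on the TPA arrays.

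The expanded and TPA arrays were also compared directly. Of 36 members, 8 were higher and 2 lower in expanded than in TPA cells, beside 3.16% and 2.81% of all genes (5.98% in either direction), and the median was 0.14 against 0.03 over all genes. This count was not stable to single arrays: it was 4 without control replicate 2, expanded replicate 3 or TPA replicate 1, 5 without control replicate 3, expanded replicate 1 or expanded replicate 2, and 7 without control replicate 1 or TPA replicate 2. The calls that passed in all 8 of these fits were Dnajb9, Ppp1r15a, Shmt2 and Trib3. Trib3 was 2.59-fold higher in expanded cells (1.37 ± 0.10, adjusted p = 0.000267) and Shmt2 1.45-fold higher (0.53 ± 0.08, adjusted p = 0.00705). Dnajb9 was 2.28-fold lower (-1.19 ± 0.14, adjusted p = 0.00297) and Ppp1r15a 1.79-fold lower (-0.84 ± 0.09, adjusted p = 0.00157). The other 6 calls were Asns, Creld2, Dnajc3, P4hb and Pdia4, between 0.29 and 0.47, and Chac1, which is under background, and each failed in at least 5 of those fits.

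The expanded arrays often lay between the others in chaperone level. The order of group means was control, expanded, TPA from high to low in 12 of 15 chaperones (80%) and in 22 of 36 members (61.1%), beside 28.7% of all genes. The exceptions among the chaperones were Hspa5, Dnajb9 and Pdia3. Of the 15, the step from expanded to TPA passed as a fall for 4 and as a rise for 1, beside 3.16% and 2.81% of all genes.

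**Figure D4:**
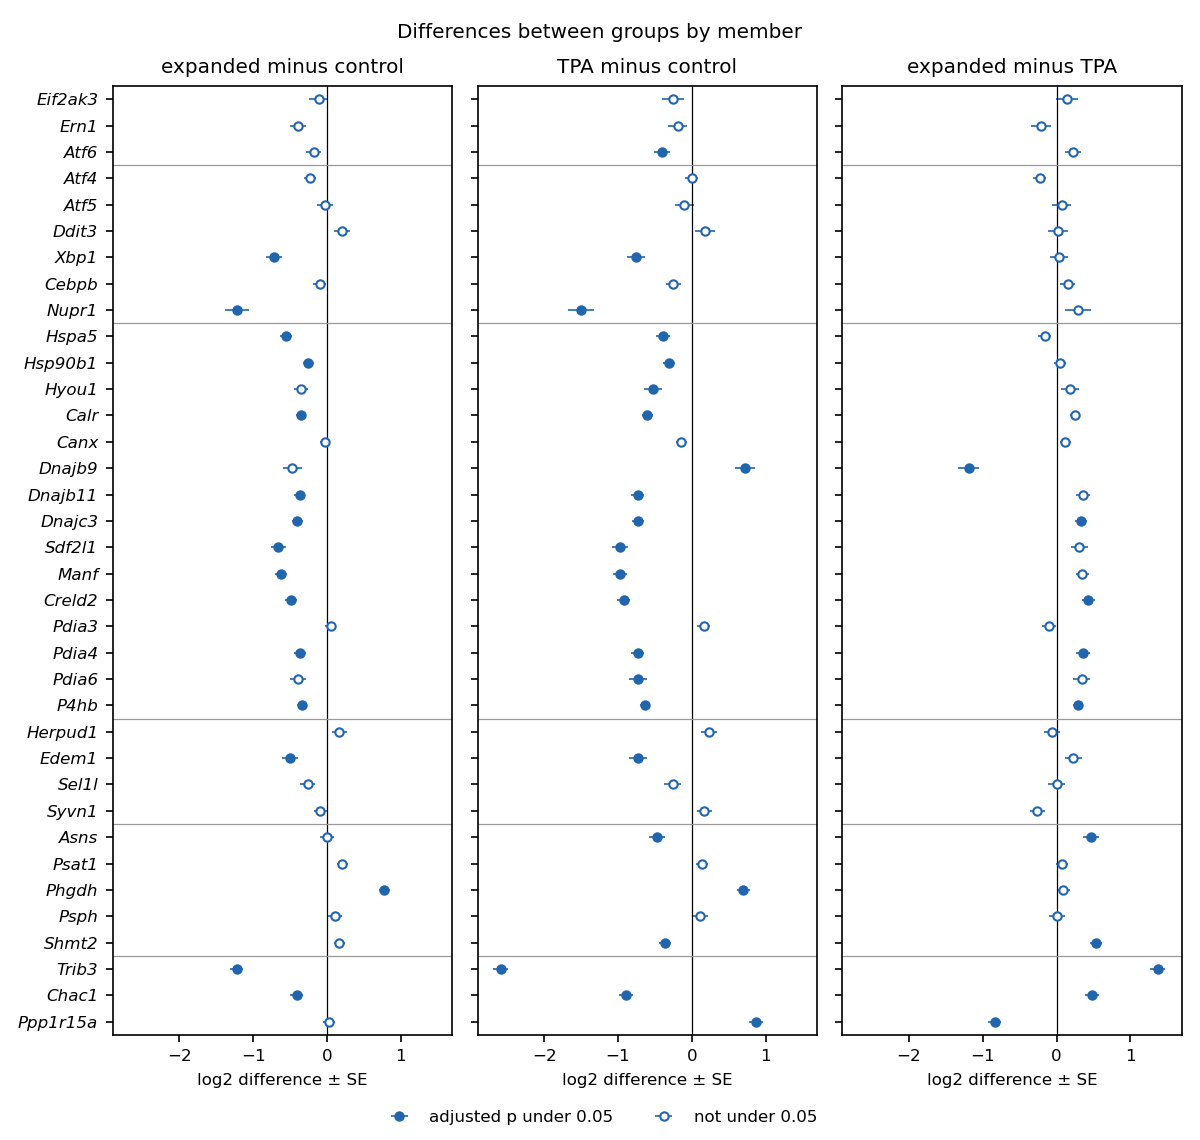
Log2 difference ± SE of every measured member for expanded minus control, TPA minus control and expanded minus TPA, in blocks by role; filled points had an adjusted p under 0.05 and open points did not. Chaperone points lie left of 0 in the first 2 panels apart from Pdia3 and, for TPA, Dnajb9, and Trib3 reaches -2.59 in the second.

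Other genes of the unfolded protein response came from a list of 69 of which 61 were measured, and those called were mostly lower. In expanded cells 14 were lower, 1 was higher and 46 did not pass, beside 5.78% of all genes called lower and 5.69% higher. In TPA cells 30 were lower, 2 were higher and 29 did not pass, beside 10.6% lower and 10.2% higher. The medians were -0.19 and -0.32. Creb3l2, an ER-bound transcription factor related to ATF6, was 2.52-fold lower in expanded cells (-1.33 ± 0.09, adjusted p = 7.88e-05), and 1.43-fold lower on its second probe set (-0.52 ± 0.12). Ero1a, the oxidase that recharges disulfide isomerases, was 2.18-fold lower in expanded and 2.52-fold lower in TPA cells. Sec24d, a coat protein of vesicles that leave the ER, was 2.00-fold lower in expanded cells and 3.88-fold lower in TPA cells, and Derl1, a channel protein of ER-associated degradation, was 1.42-fold lower in expanded cells. Tram1, a translocon-associated protein, was 2.19-fold lower in TPA cells, but its second probe set gave -0.12 ± 0.08 there, which did not pass, and an expanded minus TPA difference of -0.01, against 0.57 ± 0.09 for the first. Mogs, a glucosidase of glycan trimming, was higher in expanded cells by 0.43 ± 0.09, a call lost when control replicate 2, control replicate 3, expanded replicate 2 or expanded replicate 3 was removed. Cnpy2 was higher in TPA cells by 0.34 ± 0.09, but did not pass in most alternatives, and its second probe set gave 0.14 ± 0.10. Fkbp7 also passed in TPA cells, but lay under the background limit on 7 of 8 arrays. Between expanded and TPA cells 4 of the list were higher and 0 lower, beside 3.16% and 2.81% of all genes. Among the 4 were Bak1 and Map3k5, which both take part in apoptosis signalling. Neither passed on its second probe set (0.25 ± 0.11 and 0.44 ± 0.11). Map3k5 also did not pass without expanded replicate 2 or 3 or either TPA array, nor Sec24d without TPA replicate 1.

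Other targets of ATF4 and genes of the integrated stress response were mixed. Of 55 listed, 45 were measured. In expanded cells 3 were higher and 8 lower than in control cells, beside 5.69% and 5.78% of all genes. In TPA cells 7 were higher and 18 lower, beside 10.2% and 10.6% of all genes. The medians were -0.01 and -0.22. Cbs, which draws serine into cysteine synthesis, was 2.04-fold higher in expanded and 2.83-fold higher in TPA cells. Slc6a9, a glycine transporter, was 1.72-fold and 1.91-fold higher, and Slc3a2, a subunit of amino acid exchangers, was 1.29-fold higher in expanded cells (not passed without control replicate 2). Slc38a2, a transporter of neutral amino acids, was 1.95-fold higher in TPA cells, and Atf3, an early stress transcription factor, 2.26-fold higher. Sesn2 and Ddit4, stress-induced inhibitors of mTORC1, were 2.04-fold and 1.63-fold lower in expanded cells. Mthfd1l, a mitochondrial folate enzyme, was 1.64-fold lower in expanded and 3.06-fold lower in TPA cells, and Stc2 was 1.43-fold lower in expanded cells. The Stc2 call was lost on its second probe set (-0.09 ± 0.12) and on averaged probe sets (-0.23 ± 0.08). Eif4ebp1, a translation repressor, and Gars, glycyl-tRNA synthetase, were 2.63-fold and 1.78-fold lower in TPA cells, Eif4ebp1 by only 1.26-fold on its second probe set. Between expanded and TPA cells 8 of the list were higher and 4 lower, beside 3.16% and 2.81% of all genes. The higher ones included Iars (1.63-fold) and Gars (1.5-fold), and the lower ones Vldlr (1.61-fold, not passed on its second probe set).

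No further probe set of a member was called against the sign of the first. Of the members, 20 had more than 1 probe set with their symbol, giving 35 further probe sets. Of these, 11 were called in expanded minus control, 17 in TPA minus control and 2 in expanded minus TPA with the sign of the first probe set's difference, and 0 were called with the opposite sign.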

How the data were processed

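Basal epidermal cells of 8 mice were profiled on Affymetrix arrays after overnight trypsin at low temperature, sorting, and cDNA amplification of 25 cycles, per the labels' protocols. The deposited values are log2 signals that the authors made with RMA, per the submitters' processing notes, which give no version. The number of arrays and the spread between them set the precision. Of 45141 probe sets, 28898 carried 1 symbol in the platform annotation, 551 several and 15692 none. The probe set with the highest mean stood for each of 17097 genes, with no filter on low values. Detection calls were not used here, so 79 receptor genes of smell, the vomeronasal organ and trace amines, taken at their 95th percentile per array, served as background limit.

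The model was fitted with limma 3.58.1 (R 4.3.3) over all 8 arrays with group as the only term. Its moderated test had 5 residual plus 3.54 prior degrees of freedom, was two-sided and was adjusted by Benjamini-Hochberg over all genes at 0.05. In simulated data on 17097 genes, with 50 genes changed at each fold, it recovered 68%, 48% and 44% at a fold of 1.5 and 96%, 88% and 72% at a fold of 2, for expanded minus control, TPA minus control and expanded minus TPA. False calls numbered 11, 7 and 6. Far fewer genes were changed there than were called in the data. The adjustment depends on that share, so these percentages are not those of the real fit. Replicate numbers were not used to pair the arrays in the main fit. The correlation of residuals between arrays of the same number was -0.179 to 0.031. Arrays of different numbers were not compared in this way, so these values do not show whether the numbers mark pairs. The alternatives were quantile normalization, median centring, a filter on signal, averaged or second probe sets, trended robust eBayes, array weights, fits of only the groups compared, the replicate block and each array left out. All members are named, and of each further list up to 4 genes per comparison and direction with the smallest p. The members, roles and lists were chosen with earlier results of these data known, so no test was made over a list.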

Additional observations from a re-analysis of the deposited data

Results flagged for a closer look

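Members whose comparison with control ran in opposite directions in the expanded and TPA groups, with a called difference between these groups, are given here. Dnajb9 was lower than control on all 3 expanded arrays and higher on both TPA arrays, and expanded minus TPA was -1.19 ± 0.14 (adjusted p = 0.00297, limma with Benjamini-Hochberg adjustment). Shmt2 was higher than control on all 3 expanded arrays and lower on both TPA arrays, and expanded minus TPA was 0.53 ± 0.08 (adjusted p = 0.00705). Both of these differences passed with each of the 8 arrays left out in turn. The Shmt2 difference of TPA from control did not pass without TPA replicate 1 or on its second probe set. Neither gene passed in expanded minus control (Dnajb9 -0.47 ± 0.13, adjusted p = 0.05, and Shmt2 0.17 ± 0.07, adjusted p = 0.177, limma).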

How the results depend on the processing

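Calls with control held best and the count between expanded and TPA worst. Of 16 members called in expanded minus control, 11 passed with every array left out in turn and 10 in every alternative tried. For TPA minus control these were 17 and 16 of 23, and for expanded minus TPA 4 and 4 of 10. Leaving out 1 array gave 12 to 17, 18 to 23 and 4 to 7 called members, 1261 to 2076, 2613 to 3344 and 560 to 922 called genes, chaperone medians of -0.43 to -0.35, -0.66 to -0.57 and 0.20 to 0.31, amino acid medians of 0.16 to 0.19, -0.04 to 0.14 and 0.08 to 0.19, and gaps between these medians of -0.60 to -0.51, -0.77 to -0.53 and 0.01 to 0.20. The TPA amino acid median of -0.04 and the gap of 0.01 came without TPA replicate 1. With the replicate number as a block, 15, 21 and 5 members and 1642, 2829 and 541 genes were called, and the amino acid medians of TPA minus control and expanded minus TPA were 0.13 and 0.11. With only the 2 groups compared, 4 members and 511 genes were called between expanded and TPA, and with array weights 6 members. On each gene's second probe set, which 20 members have, 7, 11 and 1 members and 684, 1463 and 354 genes were called. The enzymes with a second probe set were Phgdh and Shmt2, and the chaperones Hspa5, Hsp90b1, Hyou1, Calr, Canx, Dnajc3 and Pdia6. The medians on second probe sets rest on these genes alone, so they are not medians of the same sets. For the enzymes they were 0.40, 0.06 and 0.34. For the chaperones they were -0.52 (TPA minus control) and 0.19 (expanded minus TPA), and the gaps were -0.76, -0.58 and -0.15 (reversed in the last). Atf6 (0.09) and Pdia6 (0.05) in TPA minus control and Tram1 (-0.01) in expanded minus TPA also changed sign on the second probe set. The expanded amino acid median was 0.16 with median centring, 0.14 with probe sets averaged and 0.18 with array weights. That of TPA was 0.12 with quantile normalization, 0.09 with median centring and 0.07 with array weights. Averaged probe sets gave an amino acid median of 0.20 and a gap of 0.05 between expanded and TPA, and genes above the median signal gave a TPA chaperone median of -0.68 and a gap of -0.78. Second probe sets and the 2-group fits test fewer genes or arrays, and otherwise the cause was not tested. Of results not called, 7, 4 and 3 passed in some alternative. Signals under the background limit (Atf6, Chac1, Pdia3) support no level.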

Other observations

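Across the 8 arrays, which fall into 3 groups, the genes whose log2 signal ran most like that of Hspa5 were Plec (Pearson r = 0.993), Mtpn (0.986), Itpkb (0.982), Hcar2 (0.978) and Rassf8 (0.975). Of the members, Xbp1 came closest to Hspa5 (0.934) and Phgdh was the most opposed (-0.923). For Asns the nearest genes were Brca2 (0.985), Tmem208 (0.977), Limk2 (0.973), Susd1 (0.970) and Psmb2 (0.968), and among the members Shmt2 (0.880), with Ppp1r15a the most opposed (-0.894). These values describe the arrays, which share the group differences, and carry no test.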
